A study of Mus musculus with 7 samples.

Results

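Most cathepsins are proteases of the lysosome, and cystatin C is a secreted protein that blocks the cysteine cathepsins. The 8 genes described are 7 cathepsins (Ctsa, Ctsb, Ctsd, Ctsh, Ctsk, Ctsl and Ctsz) and the cystatin C gene Cst3. Each was taken from the deposited expression table by its exact gene symbol, and all 8 were found once among 56440 gene models. All 8 were among the 16889 genes tested, which had a normalised read count of at least 10 in at least 3 libraries.

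RNA came from mammary basal cells of mice at lactation day 2, sorted from fresh tissue. Basal cells include the myoepithelial cells, whose contraction expels the milk that luminal cells make. The 3 mutant libraries carry the genotype a3a6KO (integrins α3 and α6) and are marked Blg positive, whereas the 4 control libraries carry the genotype Ctrl and are marked Blg negative. From general knowledge of such mouse lines, Blg stands for a Cre transgene under the beta-lactoglobulin promoter, which is active in the luminal cells of the lactating gland. Because all mutants were Blg positive and all controls Blg negative, the transgene and the loss of the integrins cannot be told apart. Not given in the sources used here were strain, age and any allele that both groups share. The series calls the libraries biological replicates without naming animals, so p-values measure the spread between these libraries, which may be technical in part.

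The libraries held 9368418 to 18454773 reads in a3a6KO and 14480615 to 21548279 reads in Ctrl, and a3a6KO replicate 3 had the fewest. Itga3 was present at 494 to 818 normalised read counts in a3a6KO and 465 to 719 in Ctrl, and Itga6 at 8343 to 9083 in a3a6KO and 7764 to 10603 in Ctrl, with overlap in both and no pass in limma. Counts over whole genes would not necessarily show the loss of single exons. Whether the sorted basal cells themselves had lost either integrin was not tested, and these counts do not show it. The basal markers were abundant, with Acta2 at 546497 to 673537 in a3a6KO and 460944 to 727845 in Ctrl, and the oxytocin receptor gene Oxtr at 60989 to 110745 in a3a6KO and 99427 to 133250 in Ctrl. Of 9 basal markers 3 had a log2 fold change above 0 and 6 below, with a median of −0.06, and 0 passed in limma. Oxtr had the lowest value, −0.57 (unadjusted p = 0.053 in limma). Cnn1 had no overlap of the groups, at 57863 to 61280 in a3a6KO and 61629 to 68189 in Ctrl. Of all genes tested, 3.51% had no overlap and were lower in a3a6KO. Transcripts of luminal cells, macrophages, fibroblasts and vessels were also present in the sort. In bulk samples, fewer cells of a type and less RNA per cell cannot be told apart.

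The cathepsins fall into 3 protease classes. Ctsb, Ctsh, Ctsk, Ctsl and Ctsz are papain-like cysteine proteases, Ctsd is an aspartic protease, and Ctsa is a serine carboxypeptidase that also protects neuraminidase and beta-galactosidase in the lysosome. They are made as inactive precursors, carried to lysosomes largely by mannose 6-phosphate receptors, and activated there by cleavage at acid pH. In the mouse mammary gland, cathepsins B and L are known for their release from lysosomes of luminal cells after weaning. The transcription factors TFEB and TFE3 switch on many lysosomal genes through promoter sites built around the letters CACGTG.

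That site was looked for in the 250 bases before each annotated start of the 6 members that have a RefSeq promoter (build GRCm38.p6, the assembly of mm10). Ctsb and Ctsh were not among them. The 4 matches lay in 3 genes, Ctsa, Ctsd and Ctsl, and are shown as 30 bases of the gene's own strand, 5′ to 3′, with CACGTG in capitals, because they are the sequence feature that part of the family shares.
Ctsd, 245 bases before the start (chr7:142388048-142388077, minus strand): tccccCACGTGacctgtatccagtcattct
Ctsd, 98 bases before the start (chr7:142387908-142387937, minus strand): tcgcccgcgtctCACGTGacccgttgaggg
Ctsa, 12 bases before its second start (chr2:164833743-164833772, plus strand): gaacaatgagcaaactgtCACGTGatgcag
Ctsl, 236 bases before the start (chr13:64370739-64370768, minus strand): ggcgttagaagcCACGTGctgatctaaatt
The site nearer the start of Ctsd and the site of Ctsa carry the longer palindrome TCACGTGA. CACGTG reads the same on both strands, and every TCACGTGA contains it. Of 32851 promoter windows of that length, 6.02% held CACGTG and 0.785% held TCACGTGA. No window of Cst3, Ctsk or Ctsz, nor that of the first Ctsa start, held CACGTG. The STAT motif TTCNNNGAA, searched on both strands in the same windows, was in 7.02% of all windows and in none of these members' windows. In the GENCODE M21 annotation the second Ctsd site, the Ctsa site and part of the Ctsl site lie within exons of longer transcripts of the same genes. A match is a description of the letters and not evidence of binding.

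No cathepsin passed the test for a difference between a3a6KO and Ctrl basal cells, and neither did Cst3. In limma 0 of the 8 members passed an adjusted p of 0.05, as did 0% of all genes tested, and 0 of 8 had an unadjusted p under 0.05, against 6.32% of all genes tested. On whole reads recovered from the values, edgeR's quasi-likelihood test called 0 of 8 and 0% of all genes, and DESeq2 called 0 of 8 and 0.426% of all genes. The groups overlapped for all 8 members, whereas 7.51% of the genes tested had no overlap (4.00% higher and 3.51% lower in a3a6KO).

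All 8 log2 fold changes were above 0 (a3a6KO minus Ctrl, computed as log2 of the value + 1), where 49.5% of all genes tested were. They ran from 0.09 for Ctsa to 0.37 for Ctsk, with a median of 0.15, beside a median of −0.0040 over all genes. No member's 95% interval excluded 0. Without a3a6KO replicate 3, 5 of the 8 were above 0 and the median was 0.04, and without Ctrl replicate 2 the median was 0.08. Leaving out a3a6KO replicate 2 gave 0.31, leaving out Ctrl replicate 3 gave 0.24 and leaving out Ctrl replicate 4 gave 0.22.

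**Figure D1:**
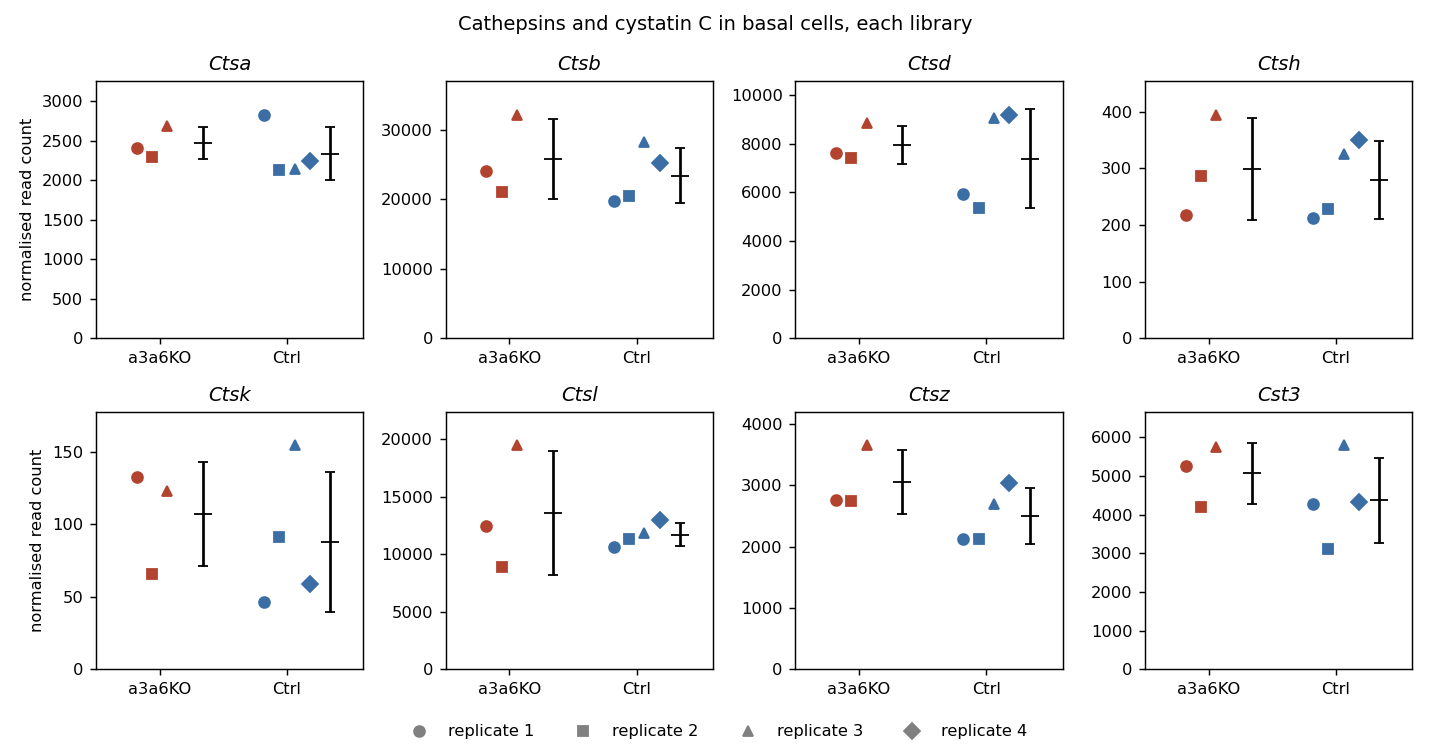
Normalised read count (vertical axis, from 0) of each member in each library, with a3a6KO left of Ctrl. Points are libraries, with the marker shape giving the replicate number, and the black dash and bar beside them are the group mean and SD (n = 3 for a3a6KO, n = 4 for Ctrl). In every panel the points of the groups overlap.

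Ctsb, on chromosome 14 (63122462 to 63145921, mm10, identifier GSMG0011684), encodes cathepsin B, a cysteine protease that can trim peptides from their carboxyl end as well as cut within them. It had 23973, 21093 and 32147 normalised read counts in a3a6KO replicates 1 to 3, against 19741, 20465, 28165 and 25171 in Ctrl replicates 1 to 4. The highest library was a3a6KO replicate 3 and the lowest Ctrl replicate 1, and the other a3a6KO libraries lay inside the range of the controls. The group means were 25738 ± 5734 (SD, n = 3) in a3a6KO and 23386 ± 3994 (SD, n = 4) in Ctrl, a log2 fold change of 0.13 (SE 0.20, 95% interval −0.33 to 0.59, limma adjusted p = 0.920). Without a3a6KO replicate 3 the sign turned, to −0.04. Dropping Ctrl replicate 1 gave 0.05, Ctrl replicate 2 gave 0.07, Ctrl replicate 3 gave 0.23 and a3a6KO replicate 2 gave 0.26. Of the Ctsb model, 769 bases overlap Fdft1 on the other strand, which had a mean of 880 normalised read counts over the 7 libraries.

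Ctsl, on chromosome 13 (64361890 to 64370520, GSMG0010802), encodes cathepsin L, a broad endopeptidase of the lysosome. It had 12462, 8883 and 19479 normalised read counts in a3a6KO replicates 1 to 3, against 10667, 11329, 11814 and 13024 in Ctrl. Both the highest and the lowest of the 7 libraries were mutants, and the controls lay close together between them. The means were 13608 ± 5390 (SD, n = 3) in a3a6KO and 11708 ± 995 (SD, n = 4) in Ctrl, a log2 fold change of 0.15 (SE 0.24, 95% interval −0.40 to 0.69, limma adjusted p = 0.924). Without a3a6KO replicate 3 the value was −0.15, and without a3a6KO replicate 2 it was 0.42. On the log2 scale the SD of Ctsl was 0.57 in a3a6KO and 0.12 in Ctrl.

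Ctsz, on chromosome 2 (174427493 to 174439039, GSMG0023977), encodes cathepsin Z, a carboxypeptidase also called cathepsin X. Its values were 2756, 2747 and 3649 normalised read counts in a3a6KO, against 2129, 2118, 2697 and 3043 in Ctrl. Every a3a6KO library lay above 3 of the 4 controls, and the exception was Ctrl replicate 4. The means were 3050 ± 518 (SD, n = 3) in a3a6KO and 2497 ± 453 (SD, n = 4) in Ctrl, a log2 fold change of 0.29 (SE 0.18, 95% interval −0.11 to 0.69). Its limma adjusted p of 0.802 was the smallest of the 8, and its unadjusted p was 0.13. Without a3a6KO replicate 3 its log2 fold change was 0.16, with an adjusted p of 0.908.

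Ctsh and Ctsk were the least abundant members. Ctsh, on chromosome 9 (90054267 to 90076095, GSMG0039905), encodes an aminopeptidase and had 217, 286 and 395 normalised read counts in a3a6KO, against 213, 228, 325 and 350 in Ctrl. Its lowest libraries were Ctrl replicate 1 and a3a6KO replicate 1, and its highest was a3a6KO replicate 3. The log2 fold change was 0.09 (SE 0.26, 95% interval −0.49 to 0.67, limma adjusted p = 0.954), and it was −0.13 without a3a6KO replicate 3, −0.03 without Ctrl replicate 1 and −0.04 with library weights. Dropping Ctrl replicate 2 gave 0.0059, Ctrl replicate 3 gave 0.18, Ctrl replicate 4 gave 0.21 and a3a6KO replicate 1 gave 0.30.

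Ctsk, on chromosome 3 (95499210 to 95509387, GSMG0024657), encodes the collagen-degrading cathepsin best known from osteoclasts and is also made by fibroblasts. It had 133, 65.9 and 123 normalised read counts in a3a6KO, against 46.2, 91.3, 154 and 59.0 in Ctrl, and these rest on 46 to 168 reads per library. Libraries of both groups stood at the high and at the low end, with Ctrl replicate 3 highest and Ctrl replicate 1 lowest. The ratio of the highest to the lowest library was 3.34, the largest of the 8 members. Its log2 fold change of 0.37 had the widest interval (SE 0.43, −0.59 to 1.34, limma adjusted p = 0.893). With Ctrl replicate 1 left out it was 0.12, with a3a6KO replicate 1 left out 0.19, with either Ctrl replicate 4 or a3a6KO replicate 3 left out 0.24, and with either Ctrl replicate 3 or a3a6KO replicate 2 left out 0.69.

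Ctsd, on chromosome 7 (142375911 to 142387901, GSMG0036890), encodes the aspartic cathepsin D, which cystatin C does not inhibit. It had 7622, 7393 and 8857 normalised read counts in a3a6KO, against 5924, 5358, 9067 and 9194 in Ctrl. The 3 mutants lay together in the middle, between a lower and a higher pair of controls. The SD was 787 (n = 3) in a3a6KO and 2028 (n = 4) in Ctrl. The log2 fold change was 0.15 (SE 0.22, 95% interval −0.35 to 0.64, limma adjusted p = 0.916). It depended on which controls were present: of the lower pair, dropping Ctrl replicate 2 gave 0.0051 and Ctrl replicate 1 gave 0.05, whereas dropping either control of the higher pair gave 0.26. Without a3a6KO replicate 3 it was 0.07.

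Ctsa, on chromosome 2 (164832872 to 164841032, GSMG0022158), encodes the serine carboxypeptidase cathepsin A. It had 2413, 2296 and 2688 normalised read counts in a3a6KO, against 2830, 2126, 2143 and 2238 in Ctrl. Ctrl replicate 1 was the highest library and stood apart from the other controls, all of which lay below each mutant. Ctsa varied least among the members, with a ratio of 1.33 between the highest and the lowest library, and its log2 fold change was 0.09 (SE 0.14, 95% interval −0.23 to 0.40, limma adjusted p = 0.924). The value was 0.18 without Ctrl replicate 1. Dropping a3a6KO replicate 2 gave 0.14, a3a6KO replicate 3 gave 0.02, Ctrl replicate 2 gave 0.04 and Ctrl replicate 3 gave 0.05. Of the Ctsa model, 1515 bases overlap Pltp on the other strand, at a mean of 8296 normalised read counts, and how the authors' counting assigned reads there is not given in the sources used here.

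Cst3, on chromosome 2 (148871720 to 148875512, GSMG0023664), encodes cystatin C, a small secreted inhibitor that fills the active site of cysteine cathepsins. It had 5250, 4210 and 5759 normalised read counts in a3a6KO, against 4271, 3111, 5792 and 4319 in Ctrl. The lowest and the highest libraries were both controls. The means were 5073 ± 790 (SD, n = 3) in a3a6KO and 4374 ± 1098 (SD, n = 4) in Ctrl, a log2 fold change of 0.24 (SE 0.21, 95% interval −0.24 to 0.71, limma adjusted p = 0.873). The value was 0.08 without Ctrl replicate 2, its lowest library, and 0.38 without Ctrl replicate 3, its highest. Dropping a3a6KO replicate 3 gave 0.14 and a3a6KO replicate 2 gave 0.36.

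**Figure D2:**
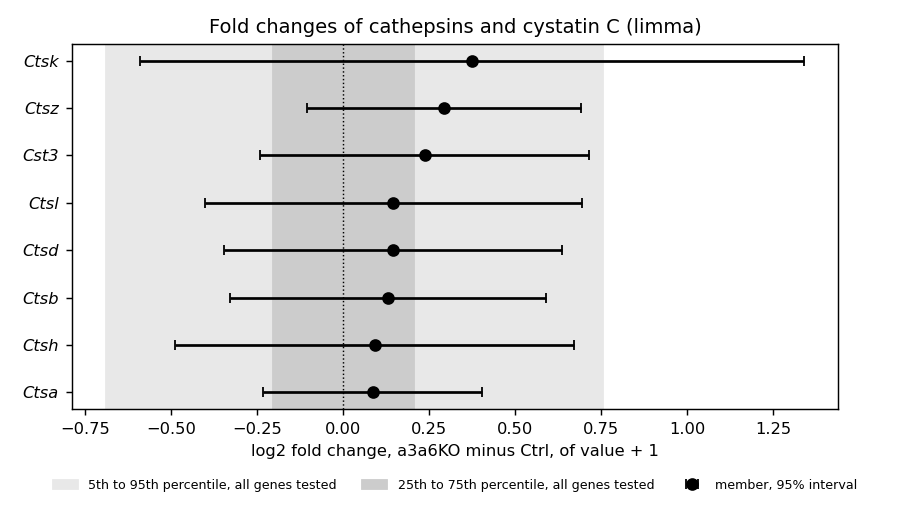
Log2 fold change of each member from limma (horizontal axis, a3a6KO minus Ctrl). Points are estimates and bars 95% intervals, and the grey bands span the 25th to 75th (−0.20 to 0.21) and the 5th to 95th (−0.69 to 0.76) percentiles of all 16889 genes. All 8 points lie above 0 and all 8 bars cross it.

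The 95% intervals give the sizes of change that these data are compatible with. At the upper end the interval of Ctsa reached a log2 fold change of 0.40, for Ctsb 0.59, for Ctsd 0.64, for Ctsh 0.67, for Ctsz 0.69, for Ctsl 0.69, for Cst3 0.71 and for Ctsk 1.34. At the lower end they reached −0.23 for Ctsa and −0.11 for Ctsz, and between −0.24 and −0.59 for the other 6.

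Per transcript length, the members covered a wide span of levels in the same order in both groups. Values were divided by the length of the shortest principal transcript of GENCODE M21. Ctsl stood first, at 6904 ± 2735 (SD, n = 3) normalised read counts per kb in a3a6KO and 5940 ± 505 (SD, n = 4) in Ctrl. Cst3 followed with 5899 ± 918.1 in a3a6KO and 5086 ± 1277 in Ctrl, and Ctsb with 5426 ± 1209 in a3a6KO and 4931 ± 842 in Ctrl. The library ranges of these neighbours overlapped in both groups, so their order is not resolved.

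Ctsd came next per kb, at 3741 ± 370 (SD, n = 3) in a3a6KO and 3472 ± 954 (SD, n = 4) in Ctrl, with a range below that of Ctsb in a3a6KO and overlapping it in Ctrl. From there down each gene's range was clear of the next in both groups. Ctsz had 2117 ± 360 in a3a6KO and 1733 ± 315 in Ctrl, and Ctsa 676 ± 55.3 in a3a6KO and 640 ± 91.6 in Ctrl. Ctsh had 185 ± 55.5 per kb in a3a6KO and 173 ± 42.5 in Ctrl, and Ctsk 70.8 ± 23.8 in a3a6KO and 57.99 ± 31.9 in Ctrl. The place of Ctsl depends on its length: the shortest principal transcript has 1971 bases and the longest 6168, and with the longest Ctsl had 2206 per kb in a3a6KO and 1898 in Ctrl and came between Ctsd and Ctsz. The other 7 genes have 1 principal length each.

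**Figure D3:**
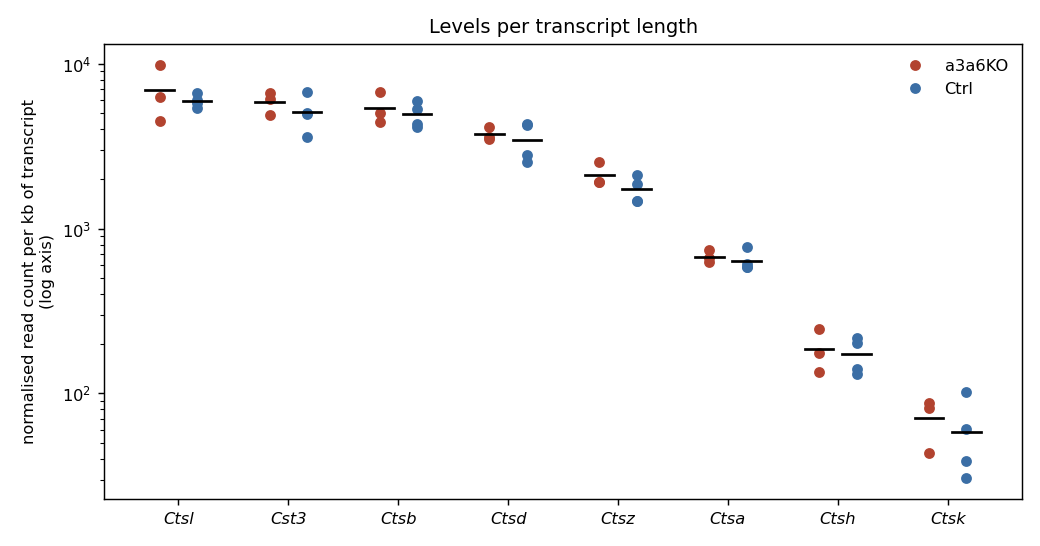
Normalised read count per kb of transcript (vertical log axis) for each member, with a3a6KO left of Ctrl. Points are libraries and black dashes group means (n = 3 for a3a6KO, n = 4 for Ctrl). The order from Ctsl at 6904 and 5940 down to Ctsk at 70.8 and 57.99 in a3a6KO and Ctrl is the same in both groups.

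The balance of protease to inhibitor transcripts overlapped between the groups. The ratio of Ctsb to Cst3, both per kb, was 0.828, 0.908 and 1.01 in a3a6KO replicates 1 to 3, against 0.838, 1.19, 0.882 and 1.06 in Ctrl replicates 1 to 4. The ratio of Ctsl to Cst3 was 1.04, 0.921 and 1.48 in a3a6KO, against 1.09, 1.59, 0.890 and 1.32 in Ctrl. Its size depends on the Ctsl length, here the shortest principal transcript of 1971 bases. With the longest, of 6168 bases, mean Ctsl per kb was 2206 in a3a6KO and 1898 in Ctrl, well below Cst3 at 5899 and 5086. In both ratios Ctrl replicate 2, the library with the least Cst3, was the highest. These ratios are descriptions of transcripts, with no test.

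Members tended to be high in the same libraries, and these belonged to both genotypes. All 8 members had a3a6KO replicate 3 among their 3 highest libraries, and for Ctsb, Ctsh, Ctsl and Ctsz it was the highest. Ctrl replicates 3 and 4 were each among the 3 highest for 5 members, as was a3a6KO replicate 1. Ctrl replicates 1 and 2 were each among the 3 lowest for 7 of the 8, and Ctrl replicate 2 was the lowest for 4. Ctsa was the exception for Ctrl replicate 1, where it was highest. The largest normalised totals were those of a3a6KO replicate 3 (16668324), Ctrl replicate 4 (16300575) and Ctrl replicate 3 (15645932). The pattern was not particular to the members. Replicate 3 of a3a6KO also had the highest mean of the other cathepsins, other lysosomal hydrolases, and membrane and proton pump genes, though not of the sorting and processing genes.

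After each gene's mean was removed, Ctsb and Ctsz were the closest pair of members, with a root mean square difference of 0.14 on the log2 scale over the 7 libraries. Ctsd and Ctsz differed by 0.15, Ctsb and Ctsd by 0.16, and Ctsb and Cst3 by 0.18. Ctsk stood farthest from the others, with differences of 0.48 (from Ctsb) to 0.66 (from Ctsa).

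The list means of macrophage and luminal markers were high in some of the same libraries. The mean log2 level of the macrophage and monocyte markers was 6.09, 5.99 and 7.504 in a3a6KO replicates 1 to 3, against 5.44, 6.11, 7.48 and 7.19 in Ctrl replicates 1 to 4. Its 3 highest libraries, a3a6KO replicate 3 and Ctrl replicates 3 and 4, were also the 3 highest for Ctsb, Ctsd and Ctsh. This mean is over the 8 of 12 markers that were tested. The summed level of all 12 ran from 867 to 2397 normalised read counts in a3a6KO and from 476 to 2662 in Ctrl. Much of these sums was Cd14, the most abundant of the markers, with 1060 in a3a6KO replicate 3 and 1634 in Ctrl replicate 4. C1qb had 105, 76.5 and 219 in a3a6KO, against 68.3, 62.2, 277 and 145 in Ctrl. Of the tested markers, only Tyrobp did not share the 3 highest libraries of the list mean. Tyrobp had 21.4 in a3a6KO replicate 3, below its 25.9 in Ctrl replicate 2. The defining marker Adgre1 was near 0, at 1.66, 1.32 and 12.5 in a3a6KO and 0, 4.85, 16.5 and 6.05 in Ctrl. With the list mean as a covariate, chosen after the data were seen, the log2 fold changes were 0.13 for Ctsb, 0.14 for Ctsd, 0.09 for Ctsh and 0.29 for Ctsz, and 0 members passed in limma.

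The luminal marker mean was highest in the same 3 libraries, at 10.26, 10.57 and 11.59 in a3a6KO, against 10.42, 10.26, 11.74 and 12.24 in Ctrl. The milk protein gene Csn2 had 44720, 72387 and 177460 normalised read counts in a3a6KO, against 85812, 58533, 322723 and 431668 in Ctrl. Not every marker followed the mean. The keratin gene Krt8 was highest in Ctrl replicate 1, at 17769, and had 9479 in Ctrl replicate 3 and 10280 in a3a6KO replicate 3. Krt18 had 2313 in Ctrl replicate 1, above its 1850 in a3a6KO replicate 3 and 1671 in Ctrl replicate 3. The sum of all 11 markers ran from 83945 to 289059 in a3a6KO and from 111318 to 663342 in Ctrl. With the luminal mean as a covariate, also chosen after the data were seen, Ctsb had a log2 fold change of 0.23, Ctsd 0.27 and Ctsz 0.40, with limma adjusted p = 0.612, 0.472 and 0.259. Both fits adjust the difference between the groups and do not measure the part of either cell type in the members' levels, which was not tested. The macrophage markers differed little between the groups, with a median log2 fold change of −0.04. A fit with their mean could therefore hardly move the members' fold changes.

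The mean of the fibroblast markers was highest in Ctrl replicate 3, as were Ctsk and Cst3. The list means were 9.44, 9.67 and 9.95 in a3a6KO, against 9.13, 8.97, 10.35 and 9.35 in Ctrl, and the summed level of the 10 markers in the table ran from 72424 to 118009 in a3a6KO and from 63739 to 100414 in Ctrl. The collagen gene Col1a1 had 2571 to 3770 normalised read counts in a3a6KO and 946 to 5389 in Ctrl, also with Ctrl replicate 3 highest. The more abundant markers Postn and Dcn did not follow the mean. Postn was lowest in Ctrl replicate 3, at 44271, and Dcn had 10455 there against 15066 in a3a6KO replicate 3. The summed level in Ctrl replicate 3 was 72179. The part of fibroblasts in Ctsk was not tested. The list mean of the endothelial markers separated the groups, at 9.60 to 10.12 in a3a6KO and 8.55 to 9.29 in Ctrl. Of these 10 markers 8 had no overlap and were higher in a3a6KO, against 4.00% of all genes tested. No cathepsin separated the groups.

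**Figure D4:**
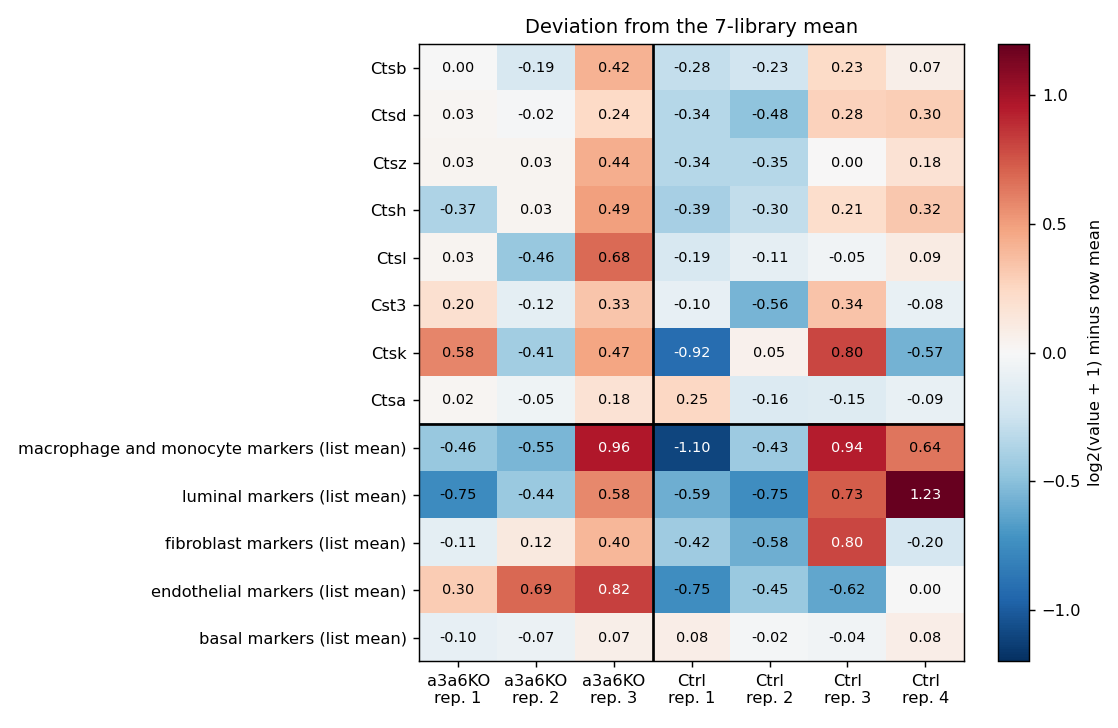
Deviation of each member's log2(value + 1), and of the mean of 5 marker lists, from its own mean over the 7 libraries (colour and printed value, log2 scale), with a3a6KO libraries left of Ctrl libraries. Ctsb, Ctsd, Ctsz and Ctsh are red or near white in a3a6KO replicate 3 and Ctrl replicates 3 and 4, as are the macrophage and luminal rows, and the basal row stays within 0.10 of its mean.

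The genes whose library pattern was most like each member's were sought among 10115 other named genes with a mean of at least 50. For Ctsb the nearest was Cstb, which encodes cystatin B, an inhibitor of cysteine cathepsins in the cytosol. Cstb had 2127, 1948 and 3005 normalised read counts in a3a6KO, against 1746, 1972, 2487 and 2360 in Ctrl, and its centred profile differed from that of Ctsb by 0.046 log2 (root mean square over 7 libraries). As for Ctsb, a3a6KO replicate 3 was the highest library and Ctrl replicate 1 the lowest. The second was Cpq, a carboxypeptidase, at 0.052.

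For Ctsz the nearest gene was Atp6v0c, a membrane subunit of the proton pump that acidifies lysosomes, at 0.064, followed by the RNA-binding protein gene Hnrnpll at 0.071. Ctsa was nearest to Optn (0.040), which encodes the autophagy receptor optineurin, and to tafazzin (0.057), listed in the table as Taz. Ctsd was nearest to Timm23 (0.063), of the mitochondrial import machinery, and Tspan7 (0.081). Ctsl was nearest to the chaperone gene Hspa4 (0.073) and Spats2 (0.073). Cst3 was nearest to the Wnt modulator gene Sfrp2 (0.089) and Gnb5 (0.099).

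Ctsh and Ctsk had no neighbours as close. For Ctsh the nearest were the selenoprotein 15 gene, listed under a date, at 0.11 and Zfp946 at 0.11. For Ctsk they were the immediate-early gene Nr4a1 at 0.18 and Sesn3 at 0.18. With 10115 genes compared over 7 libraries, close profiles are a description.

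Of 15 other cathepsin genes, 14 were in the table and 4 passed the filter, and 7 were at 0 in every library. Ctsf, a cysteine cathepsin, had 1669, 1810 and 1685 normalised read counts in a3a6KO, against 2197, 1625, 1755 and 1190 in Ctrl (log2 fold change 0.06, SE 0.19). Ctsc, which activates serine proteases of leukocytes, had 476, 335 and 767 in a3a6KO, against 275, 334, 646 and 636 in Ctrl (0.17, SE 0.37). For Ctsc the highest library was a3a6KO replicate 3 and the next were Ctrl replicates 3 and 4, the order of the macrophage list.

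Ctss, the cathepsin of antigen-presenting cells, had 94.5, 43.5 and 192 normalised read counts in a3a6KO, against 29.1, 40.4, 122 and 126 in Ctrl (log2 fold change 0.50, SE 0.64). Its 3 highest libraries were again a3a6KO replicate 3 and Ctrl replicates 3 and 4. Ctso had a log2 fold change of −0.23 (SE 0.17). None of these 4 passed in limma, where their adjusted p ran from 0.84 for Ctso to 0.96 for Ctsf, and DESeq2 called none of them. Of 17 other cystatins 14 were in the table and 11 were at 0 in every library. Cstb was the 1 that passed the filter (log2 fold change 0.13, SE 0.19, limma adjusted p = 0.916).

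The genes that sort and process cathepsins gave 0 calls among 14 tested. Their median log2 fold change was −0.07, with 6 above 0 and 8 below. M6pr, the cation-dependent mannose 6-phosphate receptor, had 2064, 1879 and 1904 normalised read counts in a3a6KO, against 1562, 1398, 1763 and 1882 in Ctrl (0.25, SE 0.14). Lgmn, which encodes legumain, a protease that can cleave cathepsin precursors, had 677, 525 and 923 in a3a6KO, against 383, 490, 720 and 598 in Ctrl (0.37, SE 0.25). Grn, which encodes the lysosomal protein progranulin, had 0.30 (SE 0.15) and the adaptor gene Gga1 −0.21 (SE 0.14).

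Among 29 other lysosomal hydrolases 0 passed in limma, 18 had a fold change above 0 and the median was 0.06 on the log2 scale. Ppt1, a thioesterase that removes palmitate from proteins, had 1368, 1436 and 1633 normalised read counts in a3a6KO, against 1180, 1091, 1296 and 1201 in Ctrl, with no overlap (0.31, SE 0.12, limma adjusted p = 0.74). The alpha-mannosidase gene Man2b1 also had no overlap, with 729 to 913 in a3a6KO and 548 to 712 in Ctrl (0.34, SE 0.15), and so did Fuca1, an alpha-fucosidase gene named after its values were seen (0.24, SE 0.13). Gm2a, the activator protein for ganglioside breakdown, had −0.43 (SE 0.17).

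Among 25 genes of the lysosomal membrane and proton pump 0 passed in limma and 16 had a fold change above 0, with a median of 0.06 on the log2 scale. The calcium channel gene Mcoln1 had 1110, 920 and 1069 normalised read counts in a3a6KO, against 830, 716, 922 and 785 in Ctrl (0.35, SE 0.14), and overlapped by a single pair of libraries. Tmem192, named after its values were seen, was the 1 gene without overlap (0.14, SE 0.13). Over these 3 lists 4 of 68 genes, 5.88%, had no overlap and were higher in a3a6KO, against 4.00% of all genes tested.

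The transcription factors of lysosomal genes did not pass either. Tfeb had 250, 268 and 308 normalised read counts in a3a6KO, against 228, 263, 232 and 187 in Ctrl (log2 fold change 0.28, SE 0.17, limma adjusted p = 0.805). Tfe3 had 361, 281 and 489 in a3a6KO, against 276, 346, 295 and 359 in Ctrl (0.21, SE 0.21), and Mitf, at 19.6 to 27.3 in a3a6KO and 23.5 to 49.3 in Ctrl, had −0.60 (SE 0.33). Fnip2, a partner of the folliculin protein that restrains TFE3, had 38.2 to 46.3 in a3a6KO and 42.2 to 63.0 in Ctrl (−0.27, SE 0.25). For all 4 the groups overlapped. Of 10 regulators tested 4 had a fold change above 0, and the median log2 fold change was −0.03.

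Of 6 intracellular serpins, a family of protease inhibitors, 4 were tested and 0 passed in limma. Serpinb9, known as an inhibitor of granzyme B, had 3594, 2951 and 2797 normalised read counts in a3a6KO, against 1433, 1861, 2388 and 2456 in Ctrl. It was the 1 of these 4 without overlap of the groups, higher in a3a6KO, as were 4.00% of all genes tested. Its log2 fold change was 0.64 (SE 0.20, limma adjusted p = 0.65), and neither edgeR nor DESeq2 called it. Serpinb6a had a log2 fold change of −0.07 (SE 0.13), and Serpinb1a, at 7.46 to 21.4 in a3a6KO and 2.01 to 12.1 in Ctrl, 0.52 (SE 0.66).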

How the data were processed

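For each gene model and library the authors deposited 1 signal value, a gene count divided by the library's DESeq2 size factor, per the file's title. Beside DESeq2, the submitters' processing notes list STAR 2.4.0, SAMtools, Picard, FastQC and build mm10, without their roles. Libraries were made with SMARTer v4, per the labels' protocols. The read counter and strand setting were not given in the sources used here. Values are not corrected for gene length. Whole reads were recovered for 100% of values (within 0.01 of a read), with no molecular identifiers named.

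Libraries were grouped by genotype label and numbered in order of deposition. limma 3.58.1 in R 4.3.3 was fitted, with an empirical Bayes trend, to log2(value + 1) of the 16889 genes that reached 10 in 3 or more libraries. Two-sided p-values were adjusted over all genes by the Benjamini-Hochberg method, with a threshold of 0.05. The pseudocount slightly understates changes of low genes. Alternatives were other pseudocounts, filters, scalings and library weights, edgeR 4.0.16 and DESeq2 1.42.0 on recovered reads, leaving out each library, and, added after the data were seen, marker means as covariates. The scripts were tested on simulated data.

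The members, gene lists and tests were chosen with earlier results of these data known. Named were all members, the other cathepsins and cystatins that passed the filter, genes from among the 4 of each list with the smallest p and, for markers, the 3 most abundant, and for each member the 2 genes with the most similar profile. A hydrolase gene that this rule names is not reported here. Adgre1 was added as a defining marker. Lists of basal, luminal, macrophage, other immune, fibroblast, endothelial, pericyte and adipocyte markers served to describe the sort. Promoter sequences are from RefSeq and transcript lengths from GENCODE M21, both on GRCm38.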

Additional observations from a re-analysis of the deposited data

Results flagged for a closer look

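In 30 sets of the 4 control values (members, other measured cathepsins and cystatins, list means and a ratio), 3 had a library far from the other controls, where chance gives about 1 in 20. Ctsa stood at 2830 normalised read counts in Ctrl replicate 1, against 2126 to 2238 in the other controls. The mean log2 level of the lysosomal regulators was 7.26 in Ctrl replicate 3, against 7.56 to 7.58 in the other controls. The mean log2 level of the intracellular serpins was 6.16 in Ctrl replicate 1, against 8.01 to 8.07 in the other controls. In that library Serpina3g and Serpinb1a were each at 2.01 normalised read counts, against 92.3 to 122 and 9.70 to 12.1 in the other controls. Serpinb9 was also the lowest control there, at 1433, whereas Serpinb6a was the highest, at 1995.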

How the results depend on the processing

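In limma 0 genes passed under every alternative filter, pseudocount, scaling, weighting and covariate and without each library (0 to 0), edgeR called 0, and DESeq2 called 72 of 16889 genes, none of them a member. The members' median log2 fold change, 0.15, ran from 0.04 (without a3a6KO replicate 3) to 0.31 (without a3a6KO replicate 2) when 1 library was left out, was 0.09 under quantile normalization (Ctsa 0.04, Ctsb 0.07, Ctsd 0.04, Ctsl 0.06) and 0.26 with the luminal marker mean as a covariate. All 8 members stayed above 0 under the scalings tried, and the median of all genes moved by less than 0.1. The sign turned without a3a6KO replicate 3 for Ctsb (−0.0409), Ctsh (−0.1288) and Ctsl (−0.1503), and for Ctsh also with library weights (−0.0423, where Ctsl had 0.04) and without Ctrl replicate 1 (−0.0266). Without each library in turn, Ctsh ran from −0.1288 to 0.3015 and Ctsl from −0.1503 to 0.416. The cause was not tested. Ctsa, Ctsd, Ctsk, Ctsz and Cst3 kept their sign in all 20 alternatives. Depth limits Ctsk most, at 46 reads in Ctrl replicate 1. No paired analysis was possible because the labels give no replicate numbers.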

Other observations

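Cst6, which encodes the secreted inhibitor cystatin E/M, did not pass the filter on low values and is named here after its values were seen, because it stood out in a single library. It had 101.1, 5.27 and 3.56 normalised read counts in a3a6KO replicates 1 to 3, against 6.02, 1.62, 7.34 and 10.6 in Ctrl.

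Serpina3g, known in mice as the cathepsin inhibitor Spi2A and as a gene induced by interferon, varied widely in both groups. It had 136, 29.01 and 390 normalised read counts in a3a6KO, against 2.01, 122, 107 and 92.3 in Ctrl, and its log2 fold change was 1.42 (SE 1.34, limma adjusted p = 0.874).

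The pericyte, adipocyte, other immune and endothelial markers gave no calls in limma. Of 7 pericyte markers 7 had a fold change above 0, with a median of 0.50 on the log2 scale. Of 5 adipocyte markers 2 did, with a median of −0.81. Of 10 other immune markers 2 were tested, with a median of −0.30, and Ptprc, found on all leukocytes, had 9.94, 21.1 and 39.1 in a3a6KO, against 19.1, 12.1, 29.4 and 53.7 in Ctrl. The 10 endothelial markers had a median of 1.02, with 10 above 0. DESeq2 called 7 of them, against 0.426% of all genes tested, whereas edgeR on the same reads called 0.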
